A study of Homo sapiens with 18 samples.

Results

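Sympathoadrenal cells, the neural crest derivatives that become sympathetic neurons and adrenal chromaffin cells, are specified by a small set of transcription factors, and 8 genes for such factors were followed here: PHOX2A, HAND1, HAND2, GATA2, GATA3, ISL1, TFAP2B and TBX2. They were taken as a group and found by symbol among the 58735 genes of the deposited count table, so the group is 8 of 58735 genes. The cells were SH-SY5Y, an established human neuroblastoma line, exposed to all-trans retinoic acid (ATRA, 10 µM) for 7 days in every group, and then treated for 15 min. Of the 18 libraries, 3 each came from cells given water (Control), 193 nM morphine, 169 nM metamorphine, 200 nM TRV130, 200 nM beta-endorphin or 200 nM naloxone. Morphine and the peptide beta-endorphin are opioid receptor agonists, TRV130 is an agonist biased toward G protein signalling, and naloxone is an antagonist. All libraries come from 1 cell line, and the labels do not tell whether libraries of 1 group are separate cultures. The p-values measure only the spread between libraries, which may be technical.

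In the developing sympathetic chain, factors of this set act as a network in which several regulate the genes of others. Together they help switch on and maintain the genes for making, storing and taking up noradrenaline. Neuroblastoma arises from this lineage. In its adrenergic cell state, factors of this set form a core regulatory circuit, while a second, mesenchymal state uses other factors. Retinoic acid drives neuroblastoma cells toward a neuron-like state.

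Each library name ends in a code whose meaning the labels do not state, called A (7 libraries), B (6) and C (5) here. Control and 4 of the compounds had 1 library in every code, whereas TRV130 had 2 in code A, 1 in code B and none in code C. Library totals lay between 21211449 and 33123855 counts, and HAND1, the member with the fewest reads, had at least 1803 in every library. Control 1 stood apart, with 20888 reads in protein-coding genes whose median count over the libraries was 0, against at most 3074 in any other library. A length index was taken for each library as the median log2 deviation from the mean of protein-coding genes of at least 10 CPM that were long (at least 7742 bp of exon) minus that of short ones (up to 3386 bp). It was -0.84 in Control 1 and ran from -0.84 to 0.26 in code A, from 0.19 to 0.57 in code B and from -0.53 to -0.12 in code C. Code A was not uniform: TRV130 1 and TRV130 2 had -0.38 and -0.37, and its other compound libraries had 0.11 to 0.26. The summed level of 12 sympathetic neuroblast markers was 4104 to 4519 CPM in code A, 3453 to 3942 in code B and 3149 to 3385 in code C. Of these markers, TH, which catalyses the first step toward catecholamines, was nearly absent (0.103 CPM), while DBH, which makes noradrenaline, averaged 1709.8 CPM. The 10 Schwann cell and glia markers summed to 7.57 to 15.5 CPM, the 6 epithelial markers to 2.80 to 15.1 and the 6 immune markers to 4.48 to 12.9, and Control 1 had the highest value of each of these 3 sums. Other lists were higher: the 10 mesenchymal markers, among them TWIST1 (mean 172 CPM) and VIM (145), summed to 417 to 556 CPM. The 4 chromaffin markers summed to 508 to 1249 CPM, with 1249 in Control 1, 1211 in TRV130 1 and 1130 in TRV130 2. This sum was mostly that of CHGA (mean 514 CPM) and CHGB (225), whereas PNMT averaged 7.19 CPM and PENK 0.0075.

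All 8 genes were expressed in every library and passed the low-count filter. Levels are given as CPM, the count scaled by the effective library size, and genes are compared with each other only as CPM per kilobase of exon. PHOX2A was by far the most abundant. This paired-like homeodomain factor binds the promoters of the noradrenaline synthesis genes. Its gene (ENSG00000165462) lies on the minus strand of chromosome 11 at 72239077 to 72245664 (GRCh38), with 1784 bp of exon. PHOX2A averaged 1578 ± 201 CPM (SD, n = 18), or 885 CPM per kb, a level above that of 99.9% of the 19032 protein-coding genes with a count. Its lowest library still held 734 CPM per kb, above the highest level of any other member.

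Below PHOX2A the order per kilobase was HAND2 with 169.6 CPM per kb, GATA2 with 127, ISL1 with 108, HAND1 with 55.4, TFAP2B with 44.9, GATA3 with 39.1 and TBX2 with 33.7. All of these lay above at least 93.8% of protein-coding genes. ISL1 exceeded HAND1 in 18 of 18 libraries, so the 4 highest genes were separated from the 4 lowest. The neighbours in between did not separate. HAND2 exceeded GATA2 in 12 of 18 libraries, which were all 7 of code A, 0 of 6 of code B and all 5 of code C. GATA2 exceeded ISL1 in 0 of 7, 6 of 6 and 5 of 5. HAND1 exceeded TFAP2B in 16 of 18 libraries, TFAP2B exceeded GATA3 in 13, and GATA3 exceeded TBX2 in 13. The order of HAND2 against GATA2 and of GATA2 against ISL1 was thus the same in all libraries of a code, whatever the treatment. How often pairs of other genes keep such an order was not counted, and 57.8% of all genes tested differed among codes in the test below.

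The members contain pairs of paralogs, HAND1 with HAND2 and GATA2 with GATA3, whose upstream sequences are shown because the pairs shifted against each other between codes. Promoter sequences of 7 of the 8 genes were matched by symbol in a RefSeq table (GRCh38.p14). The stretches below lie upstream of the outermost RefSeq start of each gene and outside the annotated gene. Those of HAND1 and HAND2 reach the edge of the annotated gene, whereas those of GATA2 and GATA3 stop short of it. The HAND1 stretch, of 213 bases, is shorter than the others. All run 5′ to 3′ on the strand of the gene. Capitals mark GATA on either strand, the core that GATA factors bind, and CANNTG, the E-box core that basic helix-loop-helix (bHLH) factors such as the HAND proteins bind with their partners.
HAND1, chr5:154478265-154478477, minus strand: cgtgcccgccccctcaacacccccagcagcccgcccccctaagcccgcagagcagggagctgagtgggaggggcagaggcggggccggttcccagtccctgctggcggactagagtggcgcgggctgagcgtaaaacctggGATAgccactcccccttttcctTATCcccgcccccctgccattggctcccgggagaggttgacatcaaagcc
HAND2, chr4:173530230-173530479, minus strand: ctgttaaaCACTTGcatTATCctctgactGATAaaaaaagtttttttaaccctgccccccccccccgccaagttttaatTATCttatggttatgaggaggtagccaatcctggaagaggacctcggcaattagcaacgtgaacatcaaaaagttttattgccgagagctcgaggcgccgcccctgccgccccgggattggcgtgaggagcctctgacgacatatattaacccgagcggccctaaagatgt
GATA2, chr3:128493202-128493451, minus strand: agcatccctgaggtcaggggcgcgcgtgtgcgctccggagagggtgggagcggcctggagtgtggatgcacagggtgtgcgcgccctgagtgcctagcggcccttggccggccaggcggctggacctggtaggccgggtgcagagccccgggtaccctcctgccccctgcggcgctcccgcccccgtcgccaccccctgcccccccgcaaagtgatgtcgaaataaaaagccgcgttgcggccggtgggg
GATA3, chr10:8045083-8045332, plus strand: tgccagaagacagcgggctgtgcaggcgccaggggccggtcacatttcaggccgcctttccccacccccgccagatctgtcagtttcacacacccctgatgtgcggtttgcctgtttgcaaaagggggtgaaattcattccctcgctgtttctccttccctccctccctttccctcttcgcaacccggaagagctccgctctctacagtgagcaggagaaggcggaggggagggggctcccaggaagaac

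The HAND2 stretch held 3 GATA matches and 1 CANNTG match, and that of HAND1 held 2 GATA matches and 0 CANNTG matches. Neither GATA2 nor GATA3 had a match to either in these windows. The marked matches did not overlap each other. In windows of 250 bases upstream of all 35116 RefSeq starts, 45.6% held GATA and 61.8% held CANNTG, on either strand. TAATTA, a homeodomain core, was found once upstream of HAND2 and in 4.35% of all windows. The AP-2 motif GCCNNNGGC was found once in the windows of HAND1, GATA2 and GATA3 and in 19.8% of all. GC content was 49.6% in the HAND2 stretch against 68.5% for HAND1, and 72.8% for GATA2 against 60.8% for GATA3. Matches describe letters only, and no binding was measured here.

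Differences between library codes were called for 5 of the 8 members. With group and code in the model, these 5 differed among codes (edgeR's quasi-likelihood test with Benjamini-Hochberg adjustment over 23231 genes, threshold 0.05), against 57.8% of all genes tested. They were HAND2 (adjusted p = 0.00038), GATA2 (adjusted p = 0.00145), ISL1 (adjusted p = 0.00025), TFAP2B (adjusted p = 0.0016) and TBX2 (adjusted p = 0.0047). PHOX2A (adjusted p = 0.44), HAND1 (adjusted p = 0.31) and GATA3 (adjusted p = 0.074) did not pass. With 57.8% of all genes called, the share of members is near the background. Where ranges of members or their ratios do not overlap between codes below, the share of all genes that do so was not counted. The members did not move in 1 direction: between codes B and A, 2 were higher in B, where 11.5% of all genes were, and 2 were lower, where 15.5% were. Between C and A, 1 was higher in C (background 16.1%) and 1 lower (17.1%). Between C and B, 2 were higher in C (26.9%) and 2 lower (27.8%).

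**Figure D1:**
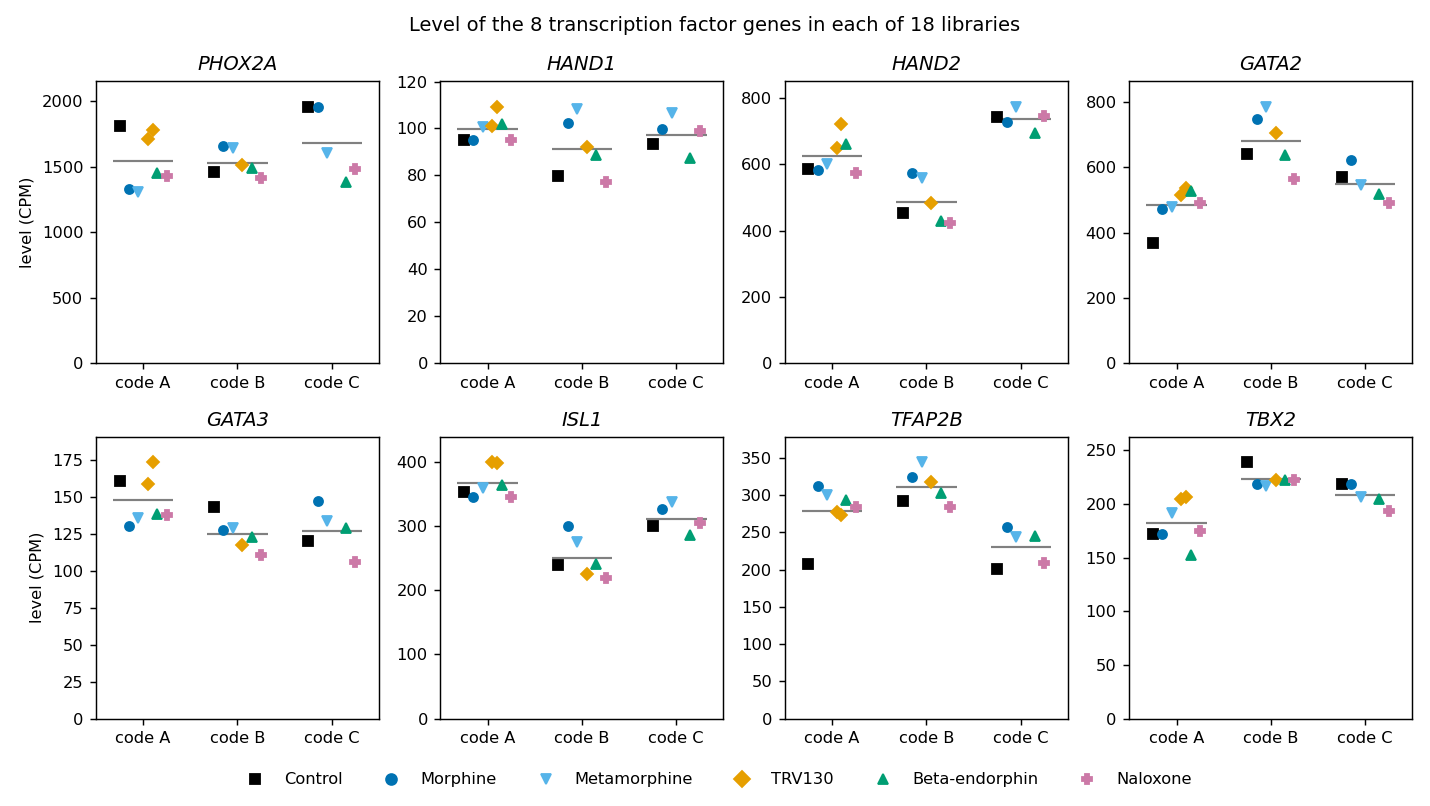
CPM of each of the 8 genes (vertical axis, from 0) in every library, set out by library code (horizontal axis), with a symbol for each treatment group and a grey line at the mean of the code. By the means, HAND2 is lowest and GATA2 highest in code B, ISL1 is highest in code A, and TFAP2B is lowest in code C. Within code A, Control is the highest library for PHOX2A and the lowest for HAND1, GATA2 and TFAP2B.

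Among the homeodomain factors, ISL1 differed between codes and PHOX2A did not pass. In PHOX2A the lowest, median and highest libraries were 1309.6, 1456 and 1815 CPM in code A and 1414, 1499 and 1663 in code B. The code C libraries held 1959.8 (Control), 1957 (morphine), 1608 (metamorphine), 1385 (beta-endorphin) and 1484 (naloxone). The ranges of all 3 codes overlapped, and the log2 differences were 0.01 ± 0.11 (B minus A, SE), 0.16 ± 0.12 (C minus A) and 0.15 ± 0.12 (C minus B), none of them called. PHOX2A shares 29 bp of exon with INPPL1 on the other strand, which held between 8.53% and 21.6% of the PHOX2A count, and the counts carry no strand.

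ISL1 encodes a LIM-homeodomain factor needed for sympathetic neurons to survive and mature. Its gene (ENSG00000016082) lies on the plus strand of chromosome 5 at 51383391 to 51394738, with 2882 bp of exon. ISL1 was 345, 360.2 and 399.8 CPM (lowest, median, highest) in code A and 219, 240.1 and 300.3 in code B. In code C it was 299.8 (Control), 327 (morphine), 337 (metamorphine), 286 (beta-endorphin) and 305 (naloxone). Every library of code A was above every library of codes B and C. ISL1 was lower in B than in A by a log2 difference of -0.55 ± 0.09 (adjusted p = 0.00084) and higher in C than in B by 0.33 ± 0.09 (adjusted p = 0.0066), while C minus A was -0.22 ± 0.09 (adjusted p = 0.072). AC010478.1, which starts 58 bp away on the other strand, averaged 123 CPM and was lowest in code A (111 CPM), the code in which ISL1 was highest.

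The HAND factors are bHLH proteins, and HAND2 is required for the noradrenergic character of sympathetic neurons. HAND2 (ENSG00000164107) lies on the minus strand of chromosome 4 at 173524969 to 173530229, with 3601 bp of exon, and HAND1 (ENSG00000113196) on the minus strand of chromosome 5 at 154474972 to 154478264, with 1738 bp. HAND2 was 575, 602 and 722 CPM (lowest, median, highest) in code A and 422, 469 and 575 in code B. In code C it was 744 (Control), 729 (morphine), 775 (metamorphine), 694 (beta-endorphin) and 747 (naloxone). All libraries of code B lay below those of codes A and C. HAND2 fell in B against A by 0.35 on the log2 scale (SE 0.09, adjusted p = 0.014), and was higher in C than in B by 0.62 ± 0.10 (adjusted p = 0.00011). The difference between B and A was not called without TRV130 3 (adjusted p = 0.070). C minus A was 0.27 ± 0.10 (adjusted p = 0.052), and it was called without any of 8 libraries: Control 1, Morphine 2 or 3, Metamorphine 2, Beta-endorphin 1, or any of the TRV130 libraries (adjusted p of 0.021 to 0.045).

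HAND1 was 94.9, 101 and 109 CPM in code A, 77.1, 90.4 and 108 in code B, and 93.3, 99.7, 107, 87.4 and 99.1 in the code C libraries in the order given for HAND2. Its codes overlapped, and the log2 differences were -0.12 ± 0.08 (B minus A), -0.02 ± 0.08 (C minus A) and 0.11 ± 0.08 (C minus B). Because HAND2 moved further than HAND1, the ratio of HAND2 to HAND1 per kilobase was 3.03 ± 0.12 in code A (SD, n = 7), 2.58 ± 0.16 in code B (n = 6) and 3.67 ± 0.16 in code C (n = 5). The ranges of this ratio did not overlap between codes, at 2.89 to 3.19, 2.33 to 2.75 and 3.51 to 3.85. The antisense gene HAND2-AS1 shares 867 bp of exon with HAND2, and it had between 57.2% and 101% of the reads of HAND2. Its level was 420.5 CPM in code A, 449 in B and 451 in C, which is not the order of HAND2. Reads of the shared stretch cannot be told apart between them.

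**Figure D2:**
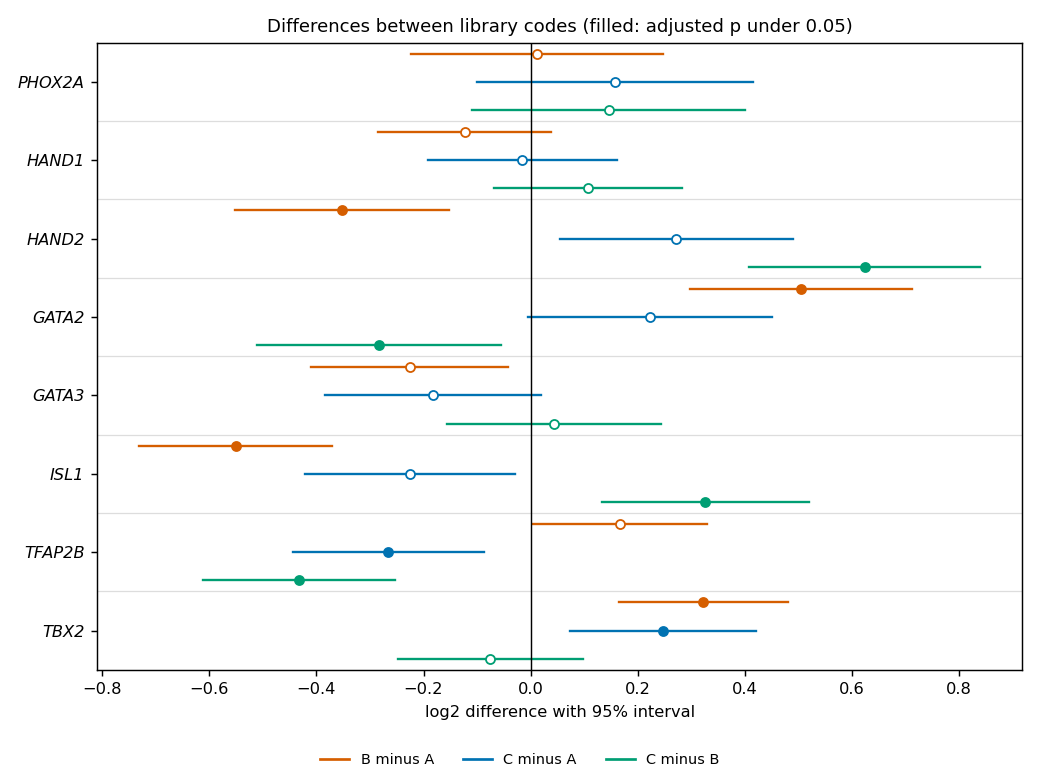
Log2 difference between library codes (horizontal axis) for each of the 8 genes (vertical axis), with lines for 95% intervals and filled points where the adjusted p was under 0.05. B minus A is above 0 and called for GATA2 (0.51) and TBX2 (0.32) and below 0 and called for HAND2 (-0.35) and ISL1 (-0.55).

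GATA2 and GATA3 encode zinc finger factors that follow the homeodomain and HAND factors in sympathetic development, and GATA3 supports transcription of the catecholamine enzymes. GATA2 (ENSG00000179348) lies on the minus strand of chromosome 3 at 128479427 to 128493185, with 4459 bp of exon, and GATA3 (ENSG00000107485) on the plus strand of chromosome 10 at 8045378 to 8075203, with 3436 bp. GATA2 was 368, 492 and 537 CPM (lowest, median, highest) in code A and 566, 675 and 787 in code B. In code C it was 569 (Control), 623 (morphine), 547 (metamorphine), 519.8 (beta-endorphin) and 491 (naloxone). Every library of code B was above every library of code A. GATA2 was higher in B than in A by 0.51 ± 0.10 (adjusted p = 0.0030). It was lower in C than in B by -0.28 ± 0.11 (adjusted p = 0.035), a call that was lost when any of 14 of the 18 libraries was left out (adjusted p up to 0.18 without Metamorphine 2) and kept without Control 1, Control 3, TRV130 3 or Beta-endorphin 2. C minus A was 0.22 ± 0.11 (adjusted p = 0.12).

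GATA3 went the other way, with 130.2, 138 and 173 CPM in code A, 110.4, 125 and 143 in code B, and 120.2, 147, 134, 129 and 106 in the code C libraries in the same order. Its log2 differences were -0.23 ± 0.09 (B minus A, adjusted p = 0.064), -0.18 ± 0.10 (C minus A) and 0.04 ± 0.09 (C minus B). None passed, although B minus A was called without Morphine 1 (adjusted p = 0.019), Metamorphine 1 (0.043) or Morphine 3 (0.045). Any difference among codes was likewise called without Morphine 1 (adjusted p = 0.024) or Morphine 3 (adjusted p = 0.044). The GATA2 to GATA3 ratio per kilobase was 2.55 ± 0.39 in code A, 4.21 ± 0.49 in code B and 3.35 ± 0.25 in code C. Its lowest value, 1.77, was in Control 1. GATA2-AS1 and GATA3-AS1 overlap these genes on the other strand without shared exon and had 26.0 and 38.8 CPM, and AL390294.1, which overlaps GATA3 on its own strand, had 15.0 CPM.

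**Figure D3:**
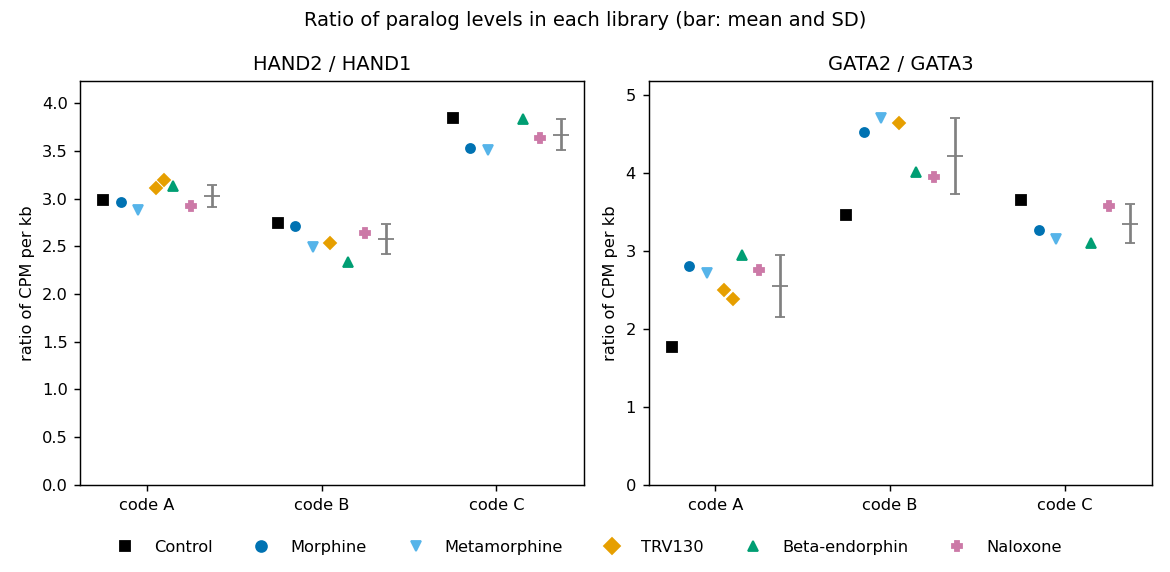
Ratio of CPM per kilobase of HAND2 to HAND1 and of GATA2 to GATA3 (vertical axes, from 0) in every library by code (horizontal axis), with the mean and SD of each code beside the points. The HAND ratio is lowest in code B (2.58) and the GATA ratio is highest there (4.21).

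TFAP2B encodes AP-2 beta, a factor of neural crest and sympathetic development, and TBX2 a T-box factor that mainly represses transcription. TFAP2B (ENSG00000008196) lies on the plus strand of chromosome 6 at 50818723 to 50847613, with 6149 bp of exon, and TBX2 (ENSG00000121068) on the plus strand of chromosome 17 at 61399896 to 61409466, with 6029 bp. TFAP2B was 208, 284 and 312 CPM (lowest, median, highest) in code A and 283, 310.3 and 344 in code B. In code C it was 201 (Control), 257 (morphine), 244 (metamorphine), 245 (beta-endorphin) and 208 (naloxone). All libraries of code C were below all libraries of code B. TFAP2B was lower in C than in B by a log2 difference of -0.43 ± 0.08 (adjusted p = 0.00048). It was also lower in C than in A, by -0.27 ± 0.08 (adjusted p = 0.025), a call lost without any of 7 libraries: Morphine 1, Metamorphine 1 or 3, TRV130 2, Beta-endorphin 1, or Naloxone 1 or 3 (adjusted p up to 0.11). B minus A was 0.17 ± 0.08 (adjusted p = 0.11).

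TBX2 was 152, 175 and 206 CPM in code A and 217, 222 and 239 in code B, with no overlap, and 219, 219, 207, 205 and 194 in the code C libraries in the same order. TBX2 was higher in B than in A by 0.32 ± 0.07 (adjusted p = 0.0073) and in C than in A by 0.25 ± 0.08 (adjusted p = 0.030). The second call was lost without any of 4 libraries, Control 3, Metamorphine 3, Beta-endorphin 1 or Beta-endorphin 3 (adjusted p up to 0.070). C minus B was -0.08 ± 0.08. On the other strand, AC005746.2 shares 28 bp of exon with TBX2 and averaged 13.2 CPM, and TBX2-AS1, with no shared exon, averaged 20.7 CPM.

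Transcript length moved with 2 of the 3 code differences among the members. In B minus A, the 3 members with at least 4459 bp of exon (GATA2, TFAP2B and TBX2) had values above 0, of which GATA2 and TBX2 passed. Of the 5 with at most 3601 bp, HAND2 and ISL1 passed and were lower, HAND1 and GATA3 had values below 0 that did not pass, and PHOX2A was at 0.01. No member reached the 7742 bp that marked long genes. Over all protein-coding genes of at least 10 CPM, the median B minus A was -0.32 for the 2673 short genes and 0.17 for the 2676 long ones. C minus B was 0.54 and -0.22 for the same genes. In C minus A the medians were 0.24 for short and -0.03 for long genes, but the longer GATA2 (0.22) and TBX2 (0.25) had values above 0 and the shorter ISL1 (-0.22) and GATA3 (-0.18) below 0, and TBX2 alone of these passed. The length index came from these same libraries, and its ranges in codes B (0.19 to 0.57) and C (-0.53 to -0.12) did not overlap. A fit that holds both code and index therefore cannot tell the part of length from that of code. With the length index of each library as a covariate, a choice made after seeing the data, 3 of 8 members differed among codes. HAND2 (adjusted p = 0.064) and TFAP2B (adjusted p = 0.078) did not pass there. Of the 4 calls between B and A, ISL1 alone passed in that fit (-0.38, adjusted p = 0.026), and of the 4 between C and B, HAND2 alone did (0.40, adjusted p = 0.041). C minus A instead called 5 members in that fit.

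The ligands changed none of the 8 genes past the threshold. In each of the 5 comparisons with Control, in the mean of the 5 compounds against Control and in the test of any difference among the 6 groups, edgeR's quasi-likelihood test called 0 of 8 members and 0% of the 23231 genes. Without the code in the model, the number of members at an unadjusted p under 0.05 was also 0 in all 7 tests. DESeq2 called 0 members. With the code added to the edgeR model, 0 members were called. Over all genes that model called 0 for each compound and for any difference among groups, and 1 for the mean of the compounds. Unadjusted p-values of the members with the code in the model are not given here. In the edgeR model without the code, the smallest adjusted p of a member was 0.46, for TFAP2B in the mean of the compounds. The 95% intervals of the model without the code limit what could have gone unseen. On the log2 scale the bound farthest from 0 was 0.77 for TFAP2B and 0.76 for GATA2 (both morphine), 0.72 for ISL1 (TRV130), -0.72 for PHOX2A (naloxone), 0.68 for HAND2 (metamorphine), -0.61 for GATA3 (naloxone), 0.53 for HAND1 (metamorphine) and -0.50 for TBX2 (beta-endorphin).

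TFAP2B had the largest fold for the mean of the compounds. It held 208, 292 and 201 CPM in Control 1, 2 and 3, 312, 324 and 257 with morphine, 300.1, 344 and 244 with metamorphine, 277, 273 and 318 with TRV130, 294, 303 and 245 with beta-endorphin, and 284, 283 and 208 with naloxone. The Control range overlapped that of every compound. The log2 fold changes were 0.35 ± 0.20 for morphine (SE, adjusted p = 0.82), 0.34 ± 0.20 for metamorphine (0.60), 0.31 ± 0.20 for TRV130, whose adjusted p was nearly 1, 0.26 ± 0.20 for beta-endorphin (0.59) and 0.15 ± 0.20 for naloxone (0.80). The mean of the 5 was 0.28 ± 0.16 (unadjusted p = 0.094 in the edgeR test without the code). Against the Control library of the same code, TFAP2B was higher in 6 of 6 compound libraries of code A, 4 of 5 of code B and 4 of 4 of code C. All compound libraries of a code were set against the same Control library, so these counts are not independent. When the model held the code, the mean was 0.27 ± 0.09 (adjusted p = 0.11), and with Control 1 also left out it was 0.16 ± 0.10 (adjusted p = 0.93). Control 1 was the lowest library of code A for this gene.

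**Figure D4:**
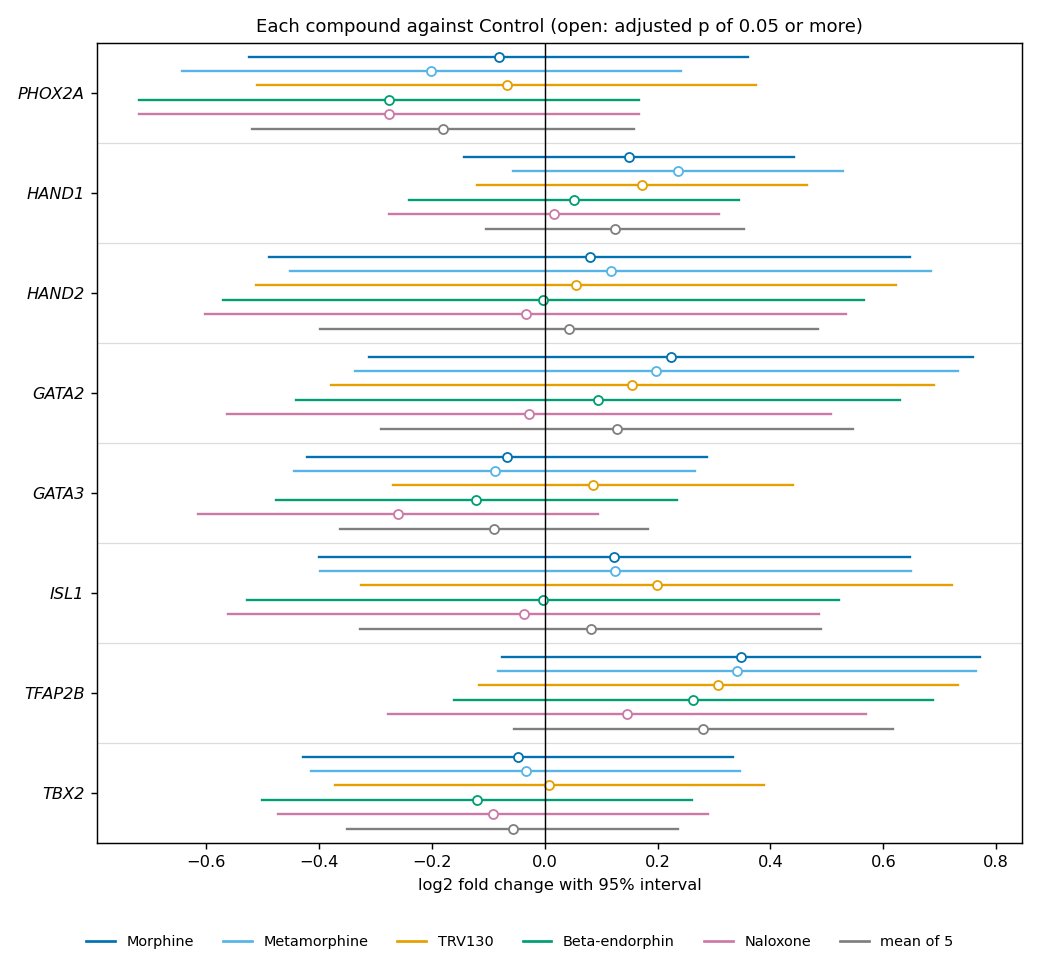
Log2 fold change of each compound, and of the mean of the 5, against Control (horizontal axis) for each of the 8 genes (vertical axis), with 95% intervals. All points are open, since no adjusted p was under 0.05, and each interval includes 0.

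The value of GATA2 turned on Control 1. GATA2 held 368, 642 and 569 CPM in the Control libraries, 474, 747 and 623 with morphine, 478, 787 and 547 with metamorphine, 515, 537 and 707 with TRV130, 528, 639 and 519.8 with beta-endorphin, and 492, 566 and 491 with naloxone. All 6 compound libraries of code A were above Control 1, but 3 of 5 in code B and 1 of 4 in code C were above their Control. The log2 fold changes ran from -0.03 ± 0.25 (naloxone) to 0.22 ± 0.25 (morphine), and the mean of the compounds was 0.13 ± 0.20, and -0.08 ± 0.21 without Control 1. When the model held the code it was 0.16 ± 0.11 with Control 1 and 0.02 ± 0.12 without.

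HAND1 and PHOX2A leaned in opposite directions without passing. HAND1 held 94.9, 79.8 and 93.3 CPM in Control, 95.1, 102 and 99.7 with morphine, and 101, 108 and 107 with metamorphine, so neither compound's range overlapped that of Control. For morphine the gap was between 94.9 and 95.1 CPM. These were 2 of 40 pairs of member and compound, and ranges did not overlap in 5.18% of all genes for morphine, 9.35% for metamorphine, 3.46% for TRV130, 10.6% for beta-endorphin and 7.84% for naloxone. The log2 fold changes of HAND1 were 0.15 ± 0.14 (morphine, adjusted p = 0.82) and 0.24 ± 0.14 (metamorphine, adjusted p = 0.60). HAND1 was above the Control of its code in 13 of 15 compound libraries. These comparisons share 1 Control library per code, and Morphine 1 (0.0030) and Naloxone 1 (0.0010) were barely above theirs on the log2 scale. PHOX2A held 1815, 1464 and 1959.8 CPM in Control, 1456, 1488 and 1385 with beta-endorphin, and 1428, 1414 and 1484 with naloxone. It was below Control in 6 of 6 compound libraries of code A and 4 of 4 of code C, but above in 4 of 5 of code B. The log2 fold change was -0.28 ± 0.21 for both beta-endorphin (adjusted p = 0.59) and naloxone (adjusted p = 0.67), and -0.18 ± 0.16 for the mean of the compounds.

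The other members had smaller folds. The fold change of the mean of the compounds was 0.04 ± 0.21 for HAND2, 0.08 ± 0.19 for ISL1, -0.09 ± 0.13 for GATA3 and -0.06 ± 0.14 for TBX2. With the length index as a covariate the folds were larger for HAND2 (0.30 ± 0.11, adjusted p = 0.29) and ISL1 (0.29 ± 0.14, adjusted p = 0.34) and smaller for TFAP2B (0.12 ± 0.09, adjusted p = 0.46), and none passed. GATA3 was below the Control of its code in 5 of 6 and 5 of 5 compound libraries of codes A and B and in 1 of 4 of code C. TBX2 was above in 4 of 6, 0 of 5 and 1 of 4. Its Control 2 library was the highest of code B.

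HAND2 held 588, 454 and 744 CPM in Control, 584, 575 and 729 with morphine, 602, 559.9 and 775 with metamorphine, 651, 722 and 484 with TRV130, 661, 429 and 694 with beta-endorphin, and 575, 422 and 747 with naloxone. ISL1 held 353, 239 and 299.8 CPM in Control, 345, 300.3 and 327 with morphine, 360.2, 276 and 337 with metamorphine, 399.8, 399 and 225 with TRV130, 364, 241 and 286 with beta-endorphin, and 346, 219 and 305 with naloxone. In both genes the code B library was the lowest of every group, and each compound overlapped Control. The log2 fold changes of HAND2 ran from -0.03 ± 0.27 (naloxone) to 0.12 ± 0.27 (metamorphine) and those of ISL1 from -0.04 ± 0.25 (naloxone) to 0.20 ± 0.25 (TRV130).

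GATA3 held 160.4, 143 and 120.2 CPM in Control, 159, 173 and 118 with TRV130, and 138, 110.4 and 106 with naloxone. Naloxone gave its lowest fold, -0.26 ± 0.17 (adjusted p = 0.65), and TRV130 its highest, 0.09 ± 0.17. TBX2 held 172, 239 and 219 CPM in Control and 152, 222 and 205 with beta-endorphin, which gave its lowest fold, -0.12 ± 0.18 (adjusted p = 0.78). Its fold with TRV130 was 0.0084 ± 0.18, and its direction turned with DESeq2, with RLE scaling, with the compared groups alone, with the length index, and without Control 1 or TRV130 3. Over the 8 members, the median fold was 0.10 for morphine, 0.12 for metamorphine and TRV130, -0.0024 for beta-endorphin and -0.04 for naloxone, beside -0.03, -0.04, -0.02, -0.04 and -0.04 over all genes tested. The 5 comparisons share the Control libraries, and morphine and metamorphine were given at different doses, so no compound was compared with another.

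**Figure D5:**
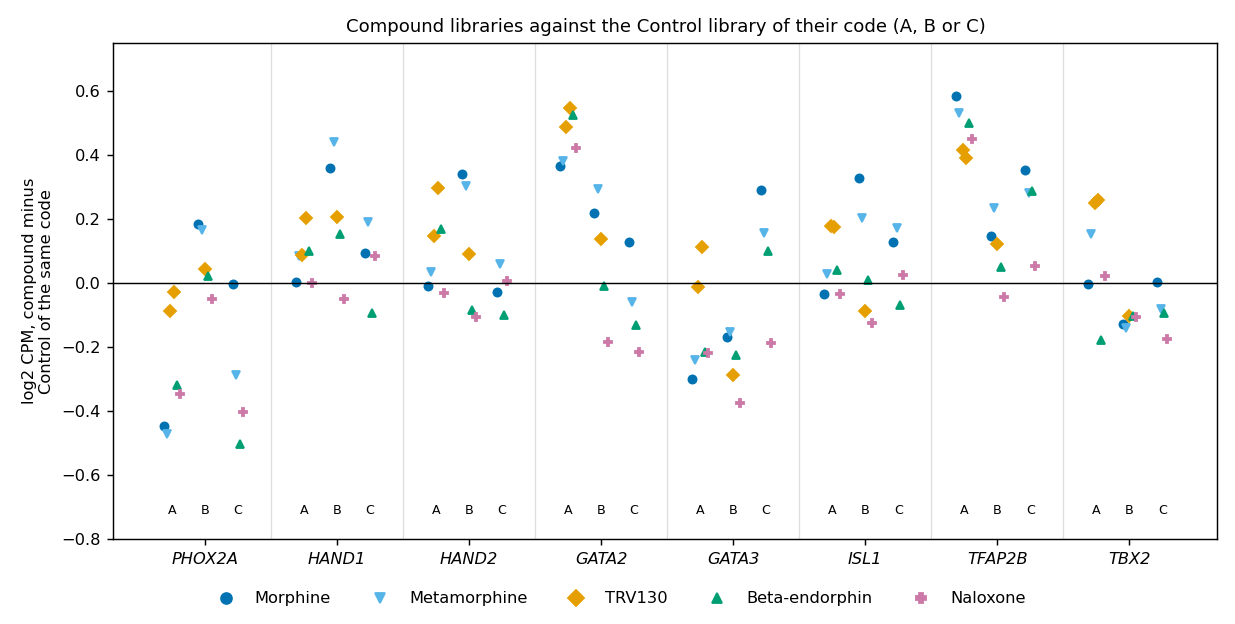
Log2 CPM of each compound library minus the Control library of the same code (vertical axis) for the 8 genes (horizontal axis), with the libraries of codes A, B and C side by side and 1 symbol per compound. TFAP2B is above 0 in 14 of 15 libraries and most of all in code A, GATA2 is above 0 throughout code A only, and PHOX2A is below 0 throughout codes A and C.

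Once the mean of each code was subtracted, some members varied together over the 18 libraries. The Pearson correlation of log2 CPM was 0.87 between HAND1 and HAND2, 0.84 between HAND2 and ISL1, 0.83 between HAND1 and ISL1, and 0.72 between GATA2 and TFAP2B. PHOX2A and TFAP2B gave -0.34. Without that subtraction GATA2 and ISL1 gave -0.57, against 0.60 with it. These values describe libraries that share scaling and depth and carry no test. Among 10698 other protein-coding genes of at least 10 CPM, HAND2 was the gene most like HAND1 (Spearman rho 0.86), followed by ZNF143 (Pearson r 0.84) and ISL1. For HAND2 the most alike were ATG3, VPS29 and RIOX2 (r 0.87 to 0.88), and for ISL1 they were MEMO1, ZNF143 and RGS7 (0.84 to 0.88). MMEL1, FEV and RBM42 were most like PHOX2A (0.93 to 0.96). TTC7B and EYA1 were among those most like GATA2 (both 0.86), and ELAC2, ZNF652 and PRR36 those most like GATA3 (0.87 to 0.91). For TFAP2B they were CBFA2T2, KCTD1 and CAND2 (0.89 to 0.92), and for TBX2 they were FAM171A2, ZNF432 and ZFPM1 (0.83 to 0.89).

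Some relatives of the members were expressed beside them. Among 30 paralogs, 12 averaged at least 1 CPM. TWIST1, a bHLH factor and HAND relative, averaged 172 CPM, GATA4 74.7, TBX3 54.6, LHX4, a LIM-homeodomain relative of ISL1, 9.65, ISL2 9.26, PRRX2 8.41, TFAP2E 6.28, TBX6 4.19, TBX4 4.10, TCF15 2.41 and TBX20 1.09. GATA4 was present at 16.8 CPM per kb beside 39.1 for GATA3. The relatives of TFAP2B were low, with TFAP2A at 0.43 CPM. Of the 18 paralogs tested, 12 differed among codes, where 57.8% of all genes did, the share beside which the counts of the other lists stand too. GATA4 was higher in B than in A by 0.72 ± 0.08 (adjusted p = 0.00014) and TBX3 by 0.52 ± 0.11 (adjusted p = 0.0053), the direction of GATA2 and TBX2. TWIST1 was higher in C than in B by 0.81 ± 0.10 (adjusted p = 1.95e-05), and LHX4 lower by -2.15 ± 0.21 (adjusted p = 8.1e-06).

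RNA for most of the proteins that work with these factors was present, with 20 of 23 cofactor genes at 1 CPM or more on average and ZFPM2 (0.10), CITED2 (0.38) and LDB2 (0.51) below. Of 22 tested cofactors, which include the E proteins that pair with HAND factors, the LIM-domain binding and LMO proteins that join ISL1 and GATA factors, and the FOG and ID proteins, 16 differed among codes and 0 with any compound. LMO1 was lower in B than in A (-0.97 ± 0.10, adjusted p = 0.00010). LMO3, SSBP2 and ID3, which blocks E proteins, were higher in C than in A, by 0.96 ± 0.13, 0.60 ± 0.09 and 0.80 ± 0.12 (adjusted p of at most 0.00044). Between C and B, 11 cofactors were higher in C and 3 lower, beside 26.9% and 27.8% of all genes.

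Other factors of the adrenergic state and the genes of the noradrenergic programme gave further values. Of 23 tested adrenergic factors, 10 differed among codes, beside 57.8% of all genes, and the difference between these shares was not tested. HEY1 was higher in B than in A by 0.41 ± 0.07 (adjusted p = 0.0018), PBX3 higher in C than in B by 0.49 ± 0.10 (adjusted p = 0.00062), and INSM1, at 0.57 CPM, lower in B than in A by -2.34 ± 0.37 (adjusted p = 0.00093). For the mean of the compounds, 21 of the 23 had a fold above 0 with a median of 0.19, beside 46.0% of all genes and a median of -0.04, but 0 passed, and Control 1 and its length index are part of each of these folds. Of 30 tested noradrenergic genes, 26 differed among codes, beside 57.8% of all genes. DBH, the gene that PHOX2A and the HAND and GATA factors act on, was lower in C than in A by -0.89 ± 0.11 (adjusted p = 0.00013), while PHOX2A was not called. SLC6A2, the noradrenaline transporter, was higher in B than in A by 0.46 ± 0.08 (adjusted p = 0.0018) and lower in C than in B by -1.05 ± 0.09 (adjusted p = 5.2e-06). DDC, the decarboxylase of catecholamine synthesis, was lower in B than in A by -0.79 ± 0.08 (adjusted p = 7.2e-05). That was the direction of HAND2 and ISL1, and also of the median of short genes (-0.32). The part of transcript length in the DDC value was not tested. PTS, which acts in making the cofactor of TH, was higher in C than in B by 1.05 ± 0.12 (adjusted p = 1.4e-05).

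Factors of the mesenchymal state were present in part. Of 25 listed, 14 averaged at least 1 CPM, among them MEF2D (71.0 CPM), IRF3 (64.4), NOTCH2 (49.6) and SMAD3 (40.0), while the defining PRRX1 averaged 0.02 CPM and FOSL1 0.66. Of the 19 tested, 10 differed among codes, among them EGR3, MEF2D, NOTCH2 and SOX9. NOTCH2 was higher in B than in A by 1.05 ± 0.25 (adjusted p = 0.0085). Retinoic acid target genes were expressed in all groups, all of which received ATRA, with CYP26B1 at 1544.7 CPM and CYP26A1 at 351 CPM. Of 12 tested, 10 differed among codes and 0 with any compound. RARB was higher in C than in A by 0.75 ± 0.12 (adjusted p = 0.00062), STRA6 lower by -0.84 ± 0.15 (adjusted p = 0.00085), and CRABP1 higher in C than in B by 1.03 ± 0.15 (adjusted p = 3.9e-05).

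Marker lists of other cell types gave these counts among codes: 4 of 5 cholinergic genes differed, 3 of 3 chromaffin, 9 of 11 sympathetic neuroblast, 6 of 8 mesenchymal, 2 of 7 Schwann cell and glia, 0 of 4 epithelial, 0 of 3 immune and 1 of 1 endothelial markers, by the same edgeR test. None of these lists had a gene called with any compound. The part of other cell types in the values of the members was not tested.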

How the data were processed

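RNA was sequenced from 18 libraries. The deposited table holds unnormalised counts of reads per Ensembl gene. Tools in the submitters' processing notes are HISAT2, featureCounts, FastQC and DESeq2, with GRCh38 (hg38) as the build. Their versions and the annotation: not given in the sources used here. Per the labels' protocols, libraries carried no strand information. All 58735 IDs are in GENCODE 29, which gave symbols, positions and exon lengths.

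Counts were filtered (filterByExpr, minimum count 10, 23231 genes), scaled by TMM and tested with edgeR 4.0.16 (R 4.3.3), robust quasi-likelihood, on all 18 libraries, with group means for the ligands and group plus library code for codes, and Benjamini-Hochberg adjustment at 0.05. The tests were run on simulated counts with known changes. CPM used TMM library sizes, and log2 CPM a prior count of 2. Codes 0409, 1109 and 14.04 are written A, B and C, and the TRV130 codes 10409 and 20409 were read as 0409. Variation between libraries (edgeR's biological coefficient) was 0.309 without and 0.182 with the code.

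The members and lists were chosen with earlier results of these data known. Named were all members, overlapping genes, paralogs of at least 1 CPM, up to 4 genes per list by smallest p, and the 3 most alike genes; other genes named were chosen after their values were seen. A few genes meeting this rule are not reported here. Replicate numbers were checked as pairs, leaving aside TRV130. For this, the log2 CPM deviations of each library from the mean of its group were correlated over the genes tested. Deviations of same-numbered libraries of a compound and Control correlated from 0.39 to 0.73 for numbers 2 and 3. For number 1 the values were -0.26 (morphine), -0.05 (metamorphine), 0.10 (beta-endorphin) and 0.25 (naloxone). Morphine 1 and Metamorphine 1 had higher values with Control 2 (0.39 and 0.37), whereas Beta-endorphin 1 and Naloxone 1 had their highest with Control 1. Alternatives were DESeq2 1.42.0, RLE scaling, no filter, blocks, the compared groups alone, the length index and left-out libraries.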

Additional observations from a re-analysis of the deposited data

Results flagged for a closer look

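Among 24 sets of a gene and a library code, 3 values lay far from the other libraries of their code by Dixon's test at 95%, a rule that chance meets in about 1 set in 20. GATA2 and TFAP2B stood out in the same library. GATA2 in Control 1 was 368 CPM against 474 to 537 in the other 6 libraries of code A, and TFAP2B in Control 1 was 208 CPM against 273 to 312. Control 1 also had the lowest length index and the most reads in otherwise silent genes. TBX2 in Control 2 was 239 CPM against 217 to 223 in the other 5 libraries of code B.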

How the results depend on the processing

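The 0 members called against Control stayed 0 in every alternative and left-out library, the code as a block included. With the replicate number as a block 0 members were called as well, and the value of GATA2 for naloxone turned to 0.0045. Deviations from group means of same-numbered Control and compound libraries correlated from -0.26 to 0.73. These values leave aside TRV130, whose numbers do not match its codes. Any difference among codes called 5 to 6 members when 1 library was left out, B minus A 3 to 5, C minus A 0 to 3 and C minus B 3 to 4. With the length index as a covariate these counts were 3, 1, 5 and 1, and for C minus A DESeq2 called 4 and no low-count filter 1. The cause was not tested. No called value changed sign; of 48 folds against Control, 31 changed sign somewhere, and of 24 code differences 6 did.

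Values that changed sign follow. With the length index they were -0.090 and -0.010 for GATA2 (beta-endorphin and the mean of the compounds), 0.32 and 0.22 for HAND2 (beta-endorphin and naloxone), 0.27 and 0.18 for ISL1 (likewise), 0.0066 for PHOX2A (morphine), -0.027 for TBX2 (TRV130) and -0.036 for TFAP2B (naloxone). Among codes they were -0.12 for GATA3, -0.12 for HAND1 and -0.19 for PHOX2A (C minus B), and 0.023 for HAND1 (B minus A). Without a low-count filter they were 0.0027, 0.0037 and 0.0020 for GATA2, HAND2 and ISL1 (naloxone), 0.032 and 0.035 for HAND2 and ISL1 (beta-endorphin), 0.0029 for TBX2 (morphine), 0.034 for HAND1 (C minus A) and -0.0023 for PHOX2A (B minus A). The code as a block gave 0.0039 for GATA2 (naloxone), and with Control 1 also left out -0.026 for GATA2 (beta-endorphin) and 0.076 for PHOX2A (TRV130). HAND1 (C minus A) was 0.055 without Control 1, TRV130 1 and TRV130 2 and 0.012 without TRV130. PHOX2A (B minus A) was -0.014 with no group term. TBX2 (TRV130) was -0.0036 with the compared groups alone and -0.013 with both DESeq2 and RLE.

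With 1 library left out, GATA2 ranged from -0.12 to 0.26 (beta-endorphin), -0.083 to 0.30 (mean), -0.034 to 0.37 (metamorphine), -0.23 to 0.14 (naloxone) and -0.062 to 0.32 (TRV130). GATA3 ranged from -0.18 to 0.0016 (mean), -0.18 to 0.011 (metamorphine), -0.16 to 0.020 (morphine) and -0.041 to 0.24 (TRV130). HAND1 ranged from -0.040 to 0.035 (C minus A), -0.027 to 0.095 (beta-endorphin) and -0.075 to 0.13 (naloxone). HAND2 ranged from -0.16 to 0.20 (beta-endorphin), -0.12 to 0.24 (mean), -0.043 to 0.32 (metamorphine), -0.079 to 0.28 (morphine), -0.28 to 0.17 (naloxone) and -0.10 to 0.26 (TRV130). ISL1 ranged from -0.18 to 0.13 (beta-endorphin), -0.051 to 0.21 (mean), -0.0075 to 0.26 (metamorphine), -0.0073 to 0.25 (morphine) and -0.18 to 0.13 (naloxone). PHOX2A ranged from -0.075 to 0.069 (B minus A), -0.24 to 0.050 (morphine) and -0.18 to 0.032 (TRV130). TBX2 ranged from -0.26 to 0.021 (beta-endorphin), -0.19 to 0.048 (mean), -0.16 to 0.071 (metamorphine), -0.19 to 0.062 (morphine), -0.21 to 0.012 (naloxone) and -0.13 to 0.11 (TRV130).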
